A study of Rattus norvegicus with 49 samples.

Results

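The complement and coagulation factor genes code for plasma proteins that the liver secretes, and 38 of them were taken as a group by name: 21 of the complement system and 17 of blood clotting, its inhibitors and clot breakdown. A gene was measured by its brightest probe among those whose RefSeq accession maps to its symbol. That gave a probe for 33 of the 38 genes, and all 33 were among the 9526 named genes tested, on 17128 tested probes. C5, C8g, F5, F11 and F13b had no probe named in this way, and their expression is not analysed here. The tissue was liver of F344 rats of both sexes, a widely used inbred laboratory strain, aged 7 to 8 weeks when dosing began. The rats received furan, a contaminant formed in heated food, in corn oil by gavage at 2, 0.5, 0.12 and 0.03 mg/kg, or corn oil alone (0 mg/kg) as controls, on 5 days of the week for 90 days. Each of the 10 groups of sex and dose held 5 arrays from separate rats, except 3 for males at 0.03 mg/kg, where 1 of 4 arrays was left out because of a dim signal.

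Complement is a cascade of proteases in plasma that tags microbes and damaged cells. It is started by the classical, the lectin or the alternative pathway, which meet at C3 and end in a membrane pore. Clotting is a parallel cascade of proteases that ends in fibrin, held in check by antithrombin and the protein C pathway. Hepatocytes are the main source of most of these proteins, and several of the genes are under the control of the liver factors HNF1, HNF3, HNF4 and C/EBP.

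The bases in front of the start sites are shown first, because most of these genes were read at high ratios in liver and share hepatocytes as their source. RefSeq promoters of the GRCr8 build were matched by symbol to 29 of the 38 genes, and the 250 bases before the start were searched on both strands for 4 motifs. The HNF1 letters GTTAAT were found in 8 of 29 (27.6%), against 6.45% of all 33469 promoters. The C/EBP letters TTGCNNAA were found in 10 (34.5%, against 9.22%) and the HNF3 letters TGTTTAC in 4 (13.8%, against 3.21%). The 29 include C5, F5, F11 and F13b, whose expression was not measured. Of these, C5 and F13b are among the HNF1 matches and F11 among the HNF3 matches. The HNF4 letters CAAAGTCC were in 0 of 29 and in 1.14% of all promoters, which says only that these letters are not in these windows. The motifs do not overlap in the sequences below, where capitals mark them. The first 4 belong to called genes whose window holds more than 1 kind of motif, and the last to Cfi, which had the largest change and holds none.
C8a, chr5:124866632-124866881, minus strand (C/EBP, then HNF1): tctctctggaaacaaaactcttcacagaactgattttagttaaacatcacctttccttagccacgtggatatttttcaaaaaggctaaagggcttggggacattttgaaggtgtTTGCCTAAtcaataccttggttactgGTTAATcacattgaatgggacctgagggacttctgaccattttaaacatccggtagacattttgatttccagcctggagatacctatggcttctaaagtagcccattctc
C4bpa, chr13:44663472-44663721, minus strand (C/EBP, then HNF1): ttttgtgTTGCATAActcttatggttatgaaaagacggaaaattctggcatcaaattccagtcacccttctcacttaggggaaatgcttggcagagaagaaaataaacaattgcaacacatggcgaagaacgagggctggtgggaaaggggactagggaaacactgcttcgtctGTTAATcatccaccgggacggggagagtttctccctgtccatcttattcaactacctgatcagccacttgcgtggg
C4bpb, chr13:44683782-44684031, minus strand (HNF1, then HNF3 on the other strand): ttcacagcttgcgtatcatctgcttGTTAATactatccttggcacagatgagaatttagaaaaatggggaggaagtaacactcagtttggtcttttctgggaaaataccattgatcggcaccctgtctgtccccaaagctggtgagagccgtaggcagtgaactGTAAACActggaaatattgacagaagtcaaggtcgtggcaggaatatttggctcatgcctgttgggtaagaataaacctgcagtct
Klkb1, chr16:53690976-53691225, plus strand (C/EBP on the other strand, then HNF3): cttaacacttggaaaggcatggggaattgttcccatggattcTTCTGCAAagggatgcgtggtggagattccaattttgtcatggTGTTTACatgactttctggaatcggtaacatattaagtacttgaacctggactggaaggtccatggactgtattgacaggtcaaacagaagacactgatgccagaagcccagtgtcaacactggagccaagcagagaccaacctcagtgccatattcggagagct
Cfi, chr2:221063066-221063315, plus strand: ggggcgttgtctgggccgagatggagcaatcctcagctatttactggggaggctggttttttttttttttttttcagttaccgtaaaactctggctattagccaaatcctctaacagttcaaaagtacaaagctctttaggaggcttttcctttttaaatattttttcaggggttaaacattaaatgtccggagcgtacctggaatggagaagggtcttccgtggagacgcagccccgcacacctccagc
These matches are a description of letters, and binding was not measured.

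A value in what follows is a log2 ratio of liver over a universal rat reference RNA on the same array, so that 1 unit is a doubling. A change is a difference between groups of such ratios, fitted in limma with a term for the slide. A gene is called when its change passed an adjusted p of 0.05 over all tested probes and was at least 1.5-fold. On the 48 arrays used, 37.86% to 71.15% of transcript spots were well above background in the liver channel. All 6 hepatocyte markers (Alb among them) were well above background on all 48 arrays. Of the 33 genes, 32 were well above background on all 48 arrays and Pros1 on 46. Their median residual SD was 0.192, against 0.167 over all probes. The probe of 28 of the 33 had a mean ratio of at least 4 in these livers, the exceptions being C1r, C1s, C2, Cfd and Pros1.

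The slide mattered for these genes. Slides 1 to 4 and slides 5 to 8 differed in the level of the genes together. On slides 5, 6 and 8 fewer spots were well above background in the liver channel than on slides 1 to 4. On slide 7 the share ran from 51.15% to 69.56%. Only male 68 at 0.5 mg/kg, at 69.56%, was within the range of slides 1 to 4. The other arrays of slide 7 reached at most 58.32%, below the lowest share on slides 1 to 4 (60.2%). For each array, the ratio of each gene was set against its mean in the controls of the sex, and the median over the 33 genes was taken. On slides 1 to 4 this median lay between -0.38 and 0.48. On slides 5 to 8 it lay between -1.58 and -0.55, controls included. Slides 5 and 6 held 0 controls and slides 7 and 8 held 1 each, while 3 of 5 males and 4 of 5 females at 2 mg/kg lay on slides 5 to 8. Slide and dose are therefore partly mixed, and the changes given next have the slide as a term in the fit.

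**Figure D1:**
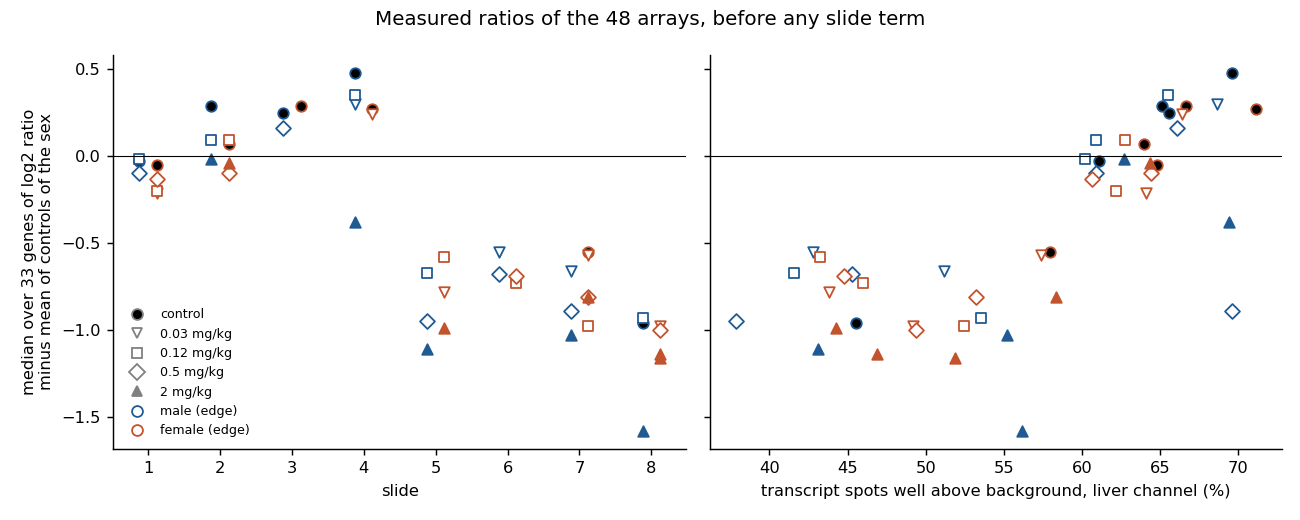
Each point is 1 of 48 arrays. The vertical axis is the median over 33 genes of the log2 ratio minus the mean of the controls of the sex, against the slide (left) and against the percentage of transcript spots well above background in the liver channel (right). Marker shape gives the dose, black fill the controls, coloured fill 2 mg/kg and edge colour the sex. Arrays on slides 5 to 8 lie at or below -0.55 whatever the dose.

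In males at 2 mg/kg, 12 of the 33 genes were called, all of them lower than in controls, against 2.49% of all tested probes called lower. They were Cfi, F7, Mbl2, F9, Klkb1, Masp1, Serpinc1, C4bpb, C6, Proc, C8a and C4bpa. At the adjusted p alone 28 of 33 passed, all lower, against 11.3% of all probes, and the 5 that did not were C2, Cfd, Kng1, Pros1 and Vtn. All 33 estimates lay below 0, with a median of -0.54 against -0.02 over all probes. Among the 487 probes with a mean ratio of at least 4, 24.4% were called lower, with a median change of -0.46 and 91.6% of estimates below 0. The 28 members among those 487 had a median of -0.56 and include all 12 that were called. Without the slide term the male median was -0.88 and 5 of the 33 were called (C8a, Cfi, Klkb1, Masp1 and Mbl2), with the dim array kept 2 (Cfi and F7), and with both changes 1 (Cfi). All 33 estimates were still below 0 in each of these fits.

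**Figure D2:**
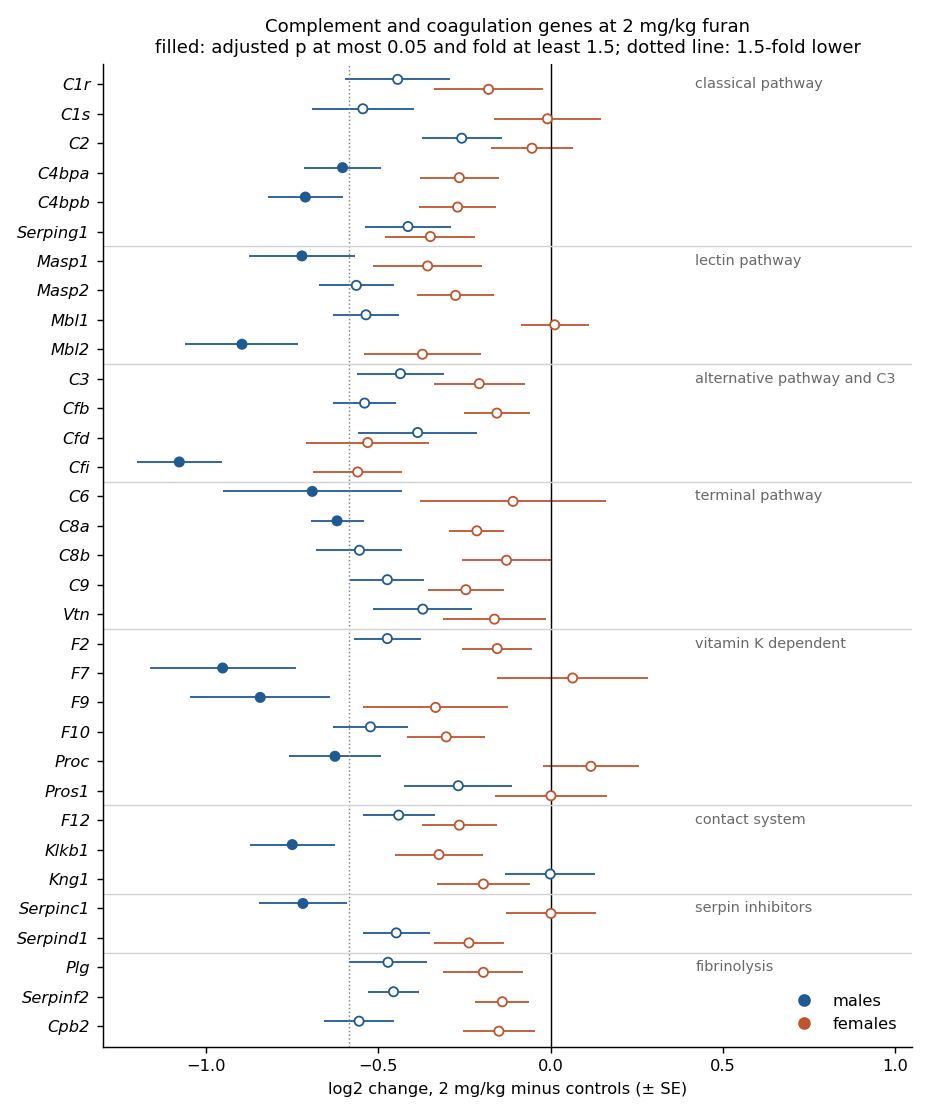
Log2 change at 2 mg/kg against controls of the same sex for each of 33 genes, ordered by role, with males in blue and females in orange. Bars are SE from the fit with slide as a term and filled points are called; 12 male points are filled and 0 female points.

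The male arrays are given in the order of their slides, which were 1, 2, 3, 4 and 8 for the controls and 2, 4, 5, 7 and 8 for 2 mg/kg.

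The alternative pathway, which amplifies C3 cleavage, showed the largest single change. Cfi codes for factor I, the protease that inactivates C3b and C4b. Its ratios were 6.5, 6.16, 6.52, 6.82 and 5.62 in control males and 5.4, 5.35, 4.88, 5 and 4.47 at 2 mg/kg. Every treated male was below every control male in these ratios, before the slide term. More treated than control males lay on slides 5 to 8, where the ratios of the 33 genes ran lower. The share of all probes that separated in this way is not given here. The change of Cfi was -1.08 ± 0.12 (SE), a 2.11-fold lower level (adjusted p 3.25e-07). Within slides 2, 4 and 8, each with 1 control and 1 treated male, the treated array was lower by log2 differences of -0.76, -1.47 and -1.14. Cfb, the protease of the alternative convertase, changed by -0.54 ± 0.09 (adjusted p 5.95e-05) and C3, the protein on which the pathways meet, by -0.44 ± 0.13 (adjusted p 0.0104), both under 1.5-fold. Cfd, factor D, changed by -0.39 ± 0.17 and did not pass (adjusted p 0.102).

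The lectin pathway reads sugars on microbes through mannose-binding lectins, and all 4 of its genes passed the adjusted p. Mbl2, a mannose-binding lectin, had ratios of 6.52, 7.23, 6.56, 7.39 and 6.07 in control males and 6.9, 5.8, 5.13, 5.35 and 4.52 at 2 mg/kg. Only the treated male on slide 2 was within the control range. The change was -0.90 ± 0.16 (1.86-fold lower, adjusted p 0.000128). Masp1, a protease that the lectins activate, had 5.78, 6.06, 5.69, 6.1 and 4.46 in controls and 5.77, 4.95, 4.02, 4.41 and 3.49 at 2 mg/kg. The control on slide 8 lay below the treated males of slides 2 and 4. Its change was -0.72 ± 0.15 (1.65-fold lower, adjusted p 0.000634), and its other probes gave -0.41 and -0.52, of which the latter passed the adjusted p (0.00987). Masp2, the protease that cleaves C4 and C2, and Mbl1, the other lectin, changed by -0.56 ± 0.11 (adjusted p 0.000222) and -0.54 ± 0.10 (9.59e-05).

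In the classical pathway, 5 of 6 genes passed the adjusted p and 2 were called. C4bpb and C4bpa code for the chains of C4b-binding protein, an inhibitor of this pathway that also binds protein S. C4bpb had ratios of 9.41, 10.09, 9.64, 9.88 and 8.37 in control males and 9.57, 8.92, 8.37, 8.01 and 7.65 at 2 mg/kg. The groups overlapped through the treated male on slide 2 and the control on slide 8. The change was -0.71 ± 0.11 for C4bpb (1.64-fold lower, adjusted p 1.46e-05) and -0.60 ± 0.11 for C4bpa (1.52-fold lower, 0.000135). C1s and C1r, the proteases of the C1 complex, changed by -0.55 ± 0.15 (adjusted p 0.00646) and -0.44 ± 0.15 (0.0301), and Serping1, their inhibitor, by -0.41 ± 0.13 (0.0144). C2, the protease of the classical convertase, gave -0.26 ± 0.12 and did not pass (0.102).

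Of the terminal pathway, which builds the membrane pore, C6 and C8a were called. C6 had ratios of 7.47, 7.52, 7.61, 8.02 and 6.84 in control males and 7.67, 7.14, 6.46, 6.34 and 4.8 at 2 mg/kg. The lowest treated array, on slide 8, differed by -2.04 from the control of its slide, while on slide 2 the difference was 0.15. The change of C6, at -0.69 ± 0.26, had the highest adjusted p of the 12 (0.0486), and leaving out any 1 of 32 of the 48 arrays ended its call. C8a ranged from 5.92 to 6.72 in controls and from 5.11 to 6.29 at 2 mg/kg, and changed by -0.62 ± 0.08 (1.54-fold lower, adjusted p 7.76e-07). Its dimmer probe gave -0.27 ± 0.13 and did not pass (0.12). C8b and C9, further parts of the pore, changed by -0.555 ± 0.125 (0.00121) and -0.47 ± 0.11 (0.0012), and Vtn, vitronectin, which blocks pore insertion, by -0.37 ± 0.14 (0.0574).

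Of the 6 clotting genes whose proteins need vitamin K, 5 passed the adjusted p and 3 were called. F7, the factor that starts clotting with tissue factor, had ratios of 4.42, 5.02, 4.17, 4.54 and 2.62 in control males and 4.24, 3.32, 1.82, 2.52 and 1.48 at 2 mg/kg. The control on slide 8 lay within the treated range, and the treated male on slide 2 within the control range. The change was -0.95 ± 0.21 (1.93-fold lower, adjusted p 0.00108), and the treated array was lower by -0.78, -1.21 and -1.14 within slides 2, 4 and 8. F9, the factor missing in hemophilia B, had 5.81, 6.48, 6.03, 6.4 and 4.32 in controls and 5.82, 5.37, 4.88, 4.25 and 3.26 at 2 mg/kg. The treated male on slide 2 was as high as the control on slide 1, and the control on slide 8 was again low. The change of F9 was -0.84 ± 0.20 (1.79-fold lower, adjusted p 0.00229). Proc codes for protein C, which inactivates factors Va and VIIIa, and had 6.09, 6.03, 6.13, 5.96 and 4.54 in controls and 5.75, 4.99, 4.52, 4.71 and 3.74 at 2 mg/kg. Apart from the control on slide 8, every control was above every treated male. The change was -0.63 ± 0.13 (1.54-fold lower, adjusted p 0.000749). F10 and F2, which code for factor X and prothrombin, changed by -0.52 ± 0.11 (0.000592) and -0.47 ± 0.10 (0.000476), and Pros1, protein S, by -0.27 ± 0.16 without passing (0.222).

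In the contact system, which links clotting to kinins, Klkb1, plasma prekallikrein, was called. Its ratios were 7.03, 7.07, 6.86, 7.15 and 6.07 in control males and 6.84, 5.81, 5.86, 5.83 and 5.19 at 2 mg/kg. The treated male on slide 2 was within the control range, and the other 4 were below every control. The change was -0.75 ± 0.12 (1.68-fold lower, adjusted p 3.85e-05). F12, which activates prekallikrein, changed by -0.44 ± 0.11 (0.00208). Kng1, kininogen, gave an estimate of -0.001 with a 95% interval from -0.267 to 0.265 (adjusted p 0.996).

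Among the inhibitors, Serpinc1, antithrombin, had ratios of 9.23, 10.02, 9.78, 10.13 and 8.23 in control males and 9.35, 9.21, 8.3, 7.13 and 7.28 at 2 mg/kg. The treated males on slides 7 and 8 were below every control, and those on slides 4 and 5 below every control but the one on slide 8. Its change was -0.72 ± 0.13 (1.65-fold lower, adjusted p 8.01e-05). Serpind1, heparin cofactor II, changed by -0.45 ± 0.10 (0.00092). All 3 genes of clot breakdown passed without reaching 1.5-fold: Plg, plasminogen, by -0.47 ± 0.11 (0.00193), Serpinf2, the plasmin inhibitor, by -0.46 ± 0.08 (3.82e-05) and Cpb2, which slows fibrinolysis, by -0.56 ± 0.10 (0.000111).

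After the slide term of the fit was subtracted from each array, the 5 males at 2 mg/kg were all below the 5 control males for 20 of the 33 genes, against 8.06% of all probes. These values come from the same fit as the changes and are no separate support for them. Within slides, which need no such term, the median difference over the 33 genes was -0.39 on slide 2 with 29 genes below 0, -0.88 on slide 4 with 33, and -0.72 on slide 8 with 30. Over all probes the medians were -0.04, -0.06 and 0.03, and over the 487 probes with a mean ratio of at least 4 they were -0.29, -0.76 and -0.56. Each of these differences is 1 array against 1 array and has no test.

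**Figure D3:**
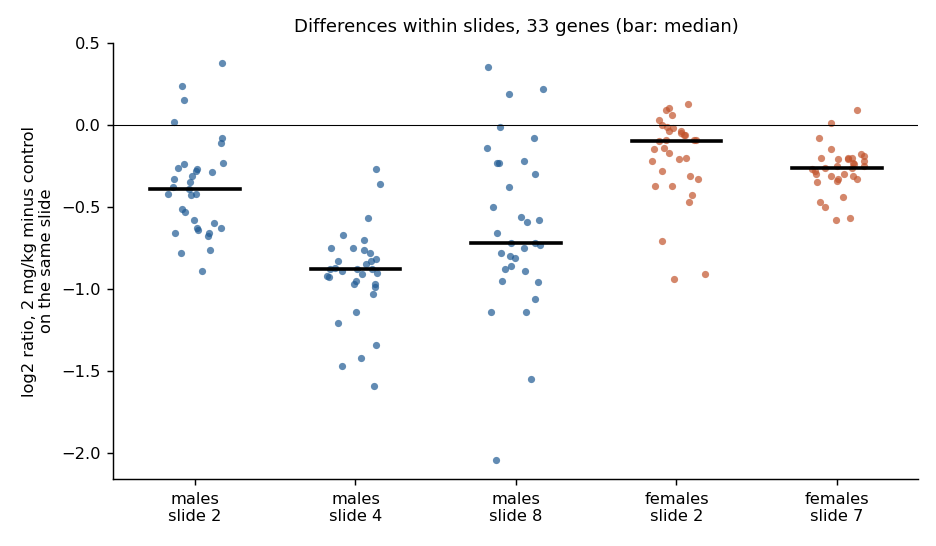
Log2 ratio at 2 mg/kg minus that of a control of the same sex on the same slide, 1 point for each of 33 genes and a bar at the median, with 1 array on either side. The male medians are -0.39, -0.88 and -0.72 and the female medians -0.10 and -0.26.

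In females at 2 mg/kg, 0 of the 33 genes were called, against 0.876% of all probes called lower. At the adjusted p alone Cfi passed, against 2.74% of all probes, and at an unadjusted p of 0.05 14 of 33 genes passed, all lower, against 11.9% of all probes. The median change was -0.20, against 0.005 over all probes, and 28 of 33 estimates lay below 0. The 487 probes with a mean ratio of at least 4 had a median of -0.16, with 79.5% of estimates below 0. Cfi, the gene with the largest change in males, had ratios of 6.64, 6.39, 6.23, 6.98 and 5.88 in control females on slides 1, 2, 3, 4 and 7. At 2 mg/kg they were 5.68, 5.37, 5.42, 5.31 and 5.47 on slides 2, 5, 7, 8 and 8. These groups did not overlap before the slide term, which was so for F9 too, and the share of all probes is not given here. Apart from the control on slide 7 and the treated female on slide 2, controls lay on slides 1 to 4 and treated females on slides 5 to 8. The change of Cfi was -0.56 ± 0.13 (adjusted p 0.0101), just under 1.5-fold. The next lowest estimates were those of Cfd at -0.53 ± 0.18 (adjusted p 0.066) and Mbl2 at -0.37 ± 0.17 (0.17). The highest were Proc at 0.12 ± 0.14, F7 at 0.06 ± 0.22 and Mbl1 at 0.01 ± 0.10. With the slide subtracted, treated females were all below controls for 13 genes, against 4.82% of all probes. These values too come from the fit that gave the changes and are no separate support. Slides 5 and 8 held treated females and no control female. Without the slide term the female median was -0.81 and Cfi was called, and with the dim array kept the median was 0.03.

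The sexes were compared by an interaction, the male change minus the female change. Proc and Serpinc1 were called, 2 of 33, against 0.648% of all probes called with males lower. Among the 487 probes with a mean ratio of at least 4, 17 were called with males lower, these 2 included. For Proc the difference was -0.74 ± 0.19 (adjusted p 0.0349), from -0.63 in males and 0.12 in females. For Serpinc1 it was -0.72 ± 0.175 (adjusted p 0.0323), from -0.72 in males and 0.001 in females, whose 95% interval ran from -0.265 to 0.267. Serpinc1 in females was 9.32, 9.55, 9.77, 9.65 and 8.07 in controls and 9.58, 8.47, 7.92, 8.11 and 8.22 at 2 mg/kg, and the control on slide 7 was as low as the treated arrays of slides 7 and 8. Proc in females was 5.81, 5.71, 5.79, 5.39 and 5.53 in controls and 5.67, 4.66, 5.33, 4.4 and 4.47 at 2 mg/kg, with the low values on slides 5 and 8, which hold no control female. C8a (-0.41) and Mbl1 (-0.55) passed the adjusted p alone, 4 of 33 in all against 1.16% of all probes. F7 had the largest difference, at -1.02 ± 0.29, and did not pass (adjusted p 0.0585). In all, 31 of the 33 differences lay below 0, with a median of -0.34. Over all probes 50.2% lay below 0, and over the 487 probes with a mean ratio of at least 4 85% did, with a median of -0.28. With slide as a random block, without the slide term or with the dim array kept, 0 of 33 were called. The count was also 0 without control females 2 or 11, control male 5 or males 83 or 87 at 2 mg/kg, 1 without any of 8 other animals, and 6 without male 86 at 2 mg/kg.

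**Figure D4:**
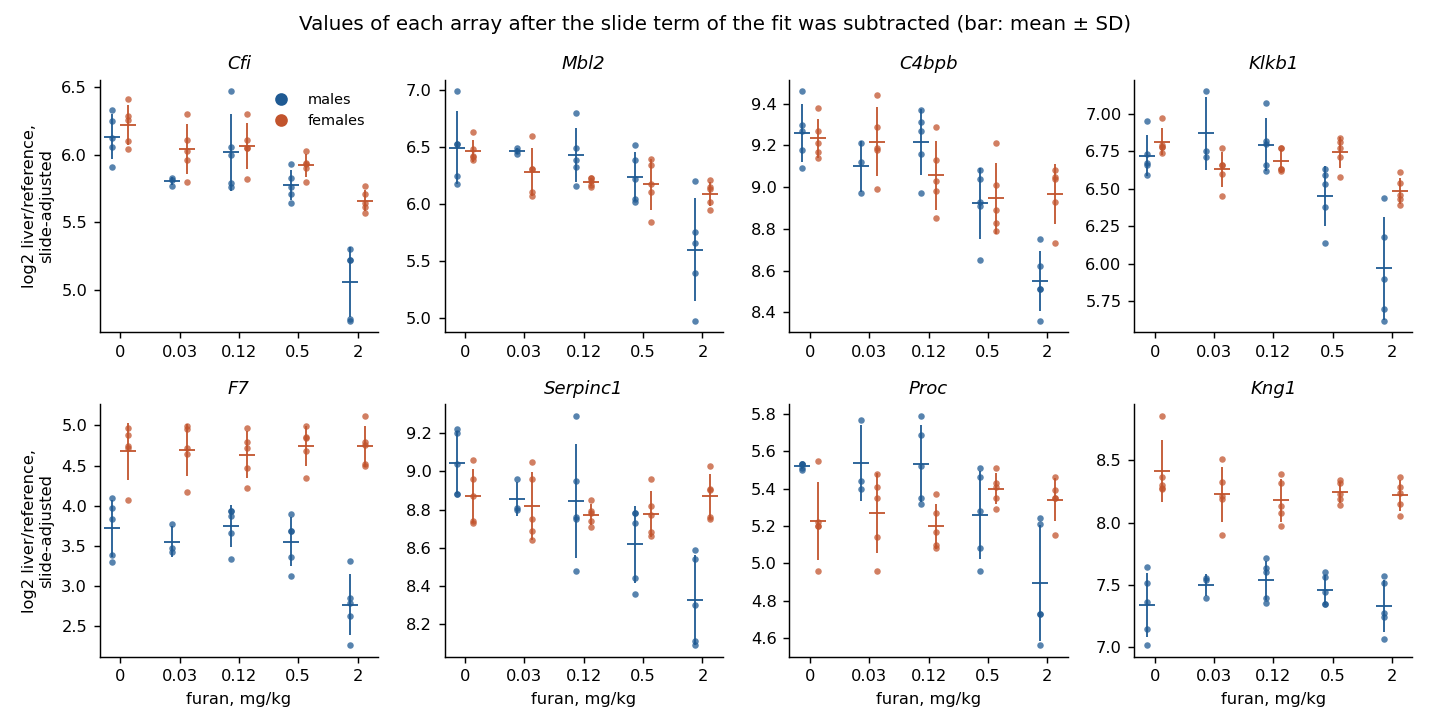
Log2 ratio of liver over reference after the slide term of the fit was subtracted, for 8 genes, at each dose in mg/kg. Points are arrays (males blue, females orange) and bars give the mean ± SD. By group mean, Cfi is lowest at 2 mg/kg in both sexes, Serpinc1 and Proc are lowest at 2 mg/kg in males and not in females, and F7 and Kng1 are higher in females at every dose.

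The lower doses gave 0 called genes among the 33 in either sex. The shares of all probes called were 0.368% in males at 0.5 mg/kg, 0.315% for 0.12 mg/kg and 0% for the lowest dose, and 0.0292%, 0.0117% and 0.0175% in females. At 0.5 mg/kg in males, C8a passed the adjusted p at -0.31 ± 0.08 (0.0483), against 0.321% of all probes lower, and 13 of the 33 passed an unadjusted p of 0.05, all lower, against 6.88%. Their largest estimates were C6 at -0.70 ± 0.26 (adjusted p 0.28), Serpinc1 at -0.43 ± 0.13 (0.138) and Cfi at -0.36 ± 0.13 (0.232). With the slide subtracted, C6 was 5.89 in 1 of these males and 6.46 to 6.99 in the others. Among females at 0.5 mg/kg it was 5.71 on 1 array and 6.97 to 7.34 on the others. Their mean was 6.92, against 7.73 in control females. In females at 0.5 mg/kg 4 passed the unadjusted p (C4bpa, C4bpb, C6 and Cfi), all lower, against 8.55% of all probes. At 0.12 mg/kg 1 gene did in males (F10) and 1 in females (Serpind1), against 6.53% and 8.5% of all probes, and at the lowest dose 1 in males (Cfi) and 0 in females, against 4.11% and 6.48%. The median change of the 33 genes was -0.12, -0.06, -0.24 and -0.54 from the lowest to the highest dose in males and -0.06, -0.11, -0.14 and -0.20 in females. The 487 probes with a mean ratio of at least 4 had medians of -0.08, -0.04, -0.175 and -0.46 in males and -0.08, -0.12, -0.12 and -0.16 in females. The 4 doses of a sex share its controls, so these medians are not independent of each other. With limma's F test over the doses, 24 of 33 genes had an effect in males, against 18.8% of all probes, and 0 in females, against 3.14%. The male count was 2 without the slide term, 1 with the dim array kept, 0 with both changes, 8 after median centring and 1 in the authors' normalised values. The lowest adjusted p of that test was 1.02e-06 for Cfi in males, and Cfi also had the lowest in females, at 0.0532.

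**Figure D5:**
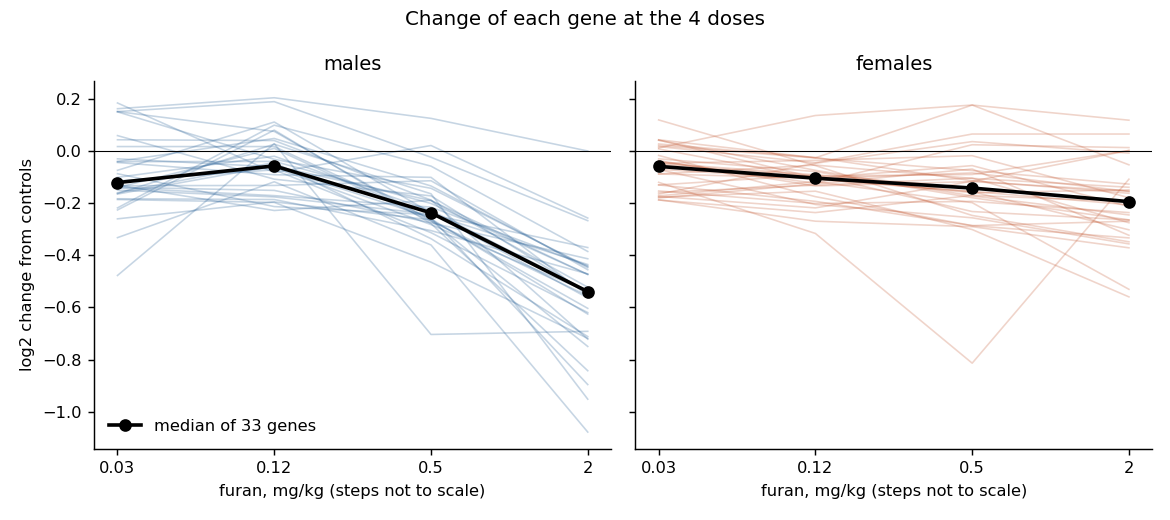
Log2 change from controls at each dose in mg/kg, 1 line for each of 33 genes and the median in black, for males and females. The male median goes from -0.12 to -0.54 and the female from -0.06 to -0.20.

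At baseline 3 of the 33 genes differed between the sexes among controls, all higher in females, against 6.58% of all probes called in either direction. Of the 487 probes with a mean ratio of at least 4, 46 were called higher in males and 52 lower. Of the 28 members among those 487, 2 were called lower in males. Kng1 had ratios of 7.64, 7.61, 7.48, 7.94 and 6.89 in control males and 8.57, 8.74, 9.32, 8.73 and 8.04 in control females. Before the slide term, the lowest control female (8.04, slide 7) was just above the highest control male (7.94, slide 4). How many of all probes separated like this is not given here. The difference of Kng1 was -1.08 ± 0.13 for males minus females (adjusted p 3.57e-08). Rat kininogens have near-identical copies, Kng2 gave -1.08 and Kng2l1 -0.60 in the same comparison, and the probes may share targets, so the value is not certain to be that of Kng1. F7 was 5.33, 5.65, 5.83, 4.78 and 4.48 in control females, overlapping the control males, and differed by -0.96 ± 0.21 (adjusted p 0.000722). Cfd, at -0.85, -0.2, -0.39, -0.22 and -0.79 in control males and 0.19, 0.34, -0.32, -0.02 and 0.25 in control females, differed by -0.62 ± 0.17 (adjusted p 0.0067). Without the slide term Kng1 alone of the 33 was called between controls, with the dim array kept Cfd alone, and with both changes 0. Averaged over the 5 doses, F7 (-1.23 ± 0.10) and Kng1 (-0.83 ± 0.06) were called, against 5.11% of all probes. Of the 487 probes with a mean ratio of at least 4, 40 were then called higher in males and 46 lower. At the adjusted p alone 15 of 33 passed, 9 higher in females and 6 in males, against 48.8% of all probes. F7 had the lowest slide-adjusted mean at 2 mg/kg in males (2.77 ± 0.38, SD, n = 5), against 3.72 ± 0.35 in control males and between 4.63 and 4.74 in the 5 female groups.

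Of the other genes of these pathways, listed beside the members, those named here without being called were chosen after their values were seen. Of 17 further complement genes tested, 0 were called at 2 mg/kg in males and 5 passed the adjusted p, all lower, among them C4a (-0.51 ± 0.10). Their median change was -0.27. Of 21 further clotting genes, 8 passed lower and 2 higher, with a median of -0.12, and the fibrinogen chains Fga, Fgb and Fgg were at -0.42, -0.50 and -0.42. A2m, alpha-2-macroglobulin, a broad protease inhibitor, was called higher at 1.60 ± 0.32 in males (adjusted p 0.000304) and 1.42 ± 0.33 in females (0.0106). In the vitamin K cycle 1 of 6 genes was called, Nqo1, a quinone reductase, at 0.73 ± 0.15 in males (0.000588), and Vkorc1, the recycling enzyme, passed at -0.44 ± 0.11 (0.00336). Of 15 regulators of liver expression, the forkhead factor Foxa3 was called lower (-0.63 ± 0.21, adjusted p 0.0281) and Il6r, the interleukin 6 receptor, higher (0.77 ± 0.235, 0.0139) in males. Cebpa, C/EBP alpha, passed at -0.53 ± 0.175 (0.0238). In females 0 of the 15 regulators passed.

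Markers of cell types were read in the same fit. In males at 2 mg/kg 3 of 4 bile duct genes tested were called higher (Epcam by 0.92, Krt19 by 0.76 and Spp1 by 0.69), and the mean ratio of the list, slide-adjusted, ranged from -2.34 to -1.80 in controls and from -1.73 to -0.88 at 2 mg/kg. Of 6 stellate cell genes 3 were called higher (Lrat, Rgs5 and Col3a1), with list means of -0.42 to 0.02 and -0.04 to 0.99. Of 6 hepatocyte genes 3 passed lower (Alb, Ttr and Apob, between -0.51 and -0.43), with list means of 7.01 to 7.38 and 6.78 to 6.97. Of 4 platelet genes and 4 erythroid genes, 2 each were called lower (Pf4 and Gp1bb, Hbb and Slc4a1), while 0 of 7 macrophage, 4 endothelial and 3 neutrophil genes were called. Sox9, Stab2, Tek, Mpo, Elane, Itga2b and Hba-a2 were not tested. Apart from the hepatocyte list, many of these markers were dim. On all 48 arrays, 1 of 4 bile duct, 4 of 6 stellate cell and 2 of 4 erythroid genes were well above background. For macrophage genes it was 3 of 7, for endothelial genes 3 of 4, and for platelet and neutrophil genes 0. Calls among dim genes are less certain. In females Epcam was called higher, and the hepatocyte list had a median change of -0.02. In bulk liver, fewer cells of a type and less RNA per cell cannot be told apart, and the part of the cell makeup in the changes of the 33 genes was not tested.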

How the data were processed

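Cy5-labelled liver RNA was hybridised with a Cy3-labelled universal reference on 49 arrays on 8 slides, with no dye swap. The deposited scanner files, made with Agilent Feature Extraction 10.7.3.1, hold spot and background intensity (medians) and a log10 ratio of liver over reference. The deposited series matrix holds log2 ratios that the authors normalised in R. Of 48 scanner files compared with its columns, 46 matched a column of their own group but only 7 their own column, so it was used without slides. Animal numbers follow the labels of the scanner files, and where these and the matrix disagree, which of them carries the right number within a group is not settled. Signals were corrected by normexp with an offset of 50 and normalised by loess within arrays in limma 3.58.1 under R 4.3.3. Spots marked as outliers were left out. Tests covered the 17128 of 30367 probes detected in liver (the scanner's mark for a signal clear of background) on 4 or more arrays in any group. The array of male 26 (0.03 mg/kg, 5.06% of liver spots well above background) was left out as under 20%. No liver spot was marked saturated, and 10 and 2 reference spots were on 2 arrays of slide 6.

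The limma fit had a mean for each group of sex and dose and slide as a fixed term, with Benjamini-Hochberg adjustment over all tested probes. Tests are 2-sided. Probes were named through RefSeq (GRCr8, names and promoters only), which named 18004 probes (59.3%); the array files are on another build. The number of arrays limits the precision. The steps were tested on simulated data. The 38 genes, the roles, the other lists, the tests and the alternatives were chosen with earlier results of these data known. Array values are given for genes called in a comparison (at most 10 each, largest change first) and for the 3 largest rises and falls at 2 mg/kg, a few of them by change alone, and the rest by change, range or count. Of other lists, counts and the called genes (at most 5) are named, and further names were added after their values were seen. Marks of the scanner software in the deposited files (other columns) gave detection and outliers. The study's methods name sex, treatment and their interaction as factors, without a slide term. Alternatives covered the slide term, the left-out array, normalisation, array weights, the choice of probe, the dim filter, the authors' values and leaving out each array. Labels name separate animals.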

Additional observations from a re-analysis of the deposited data

Results flagged for a closer look

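A single array far from the rest was looked for in 48 sets of 5 arrays (a gene in a group). The check's chance rate of about 1 in 20 does not apply here, because the sets share arrays and the slides differ in level. Of the 48 sets, 5 held such an array. Of these, 4 were control male 6 on slide 8, with log2 ratios of 5.92 for C8a (the other controls lay between 6.62 and 6.72), 4.46 for Masp1 (5.69 to 6.1), 6.07 for Klkb1 (6.86 to 7.15) and 4.54 for Proc (5.96 to 6.13). The other was control female 4 on slide 7, with 8.07 for Serpinc1 (9.32 to 9.77). On slides 7 and 8 the median measured ratio of the 33 genes was below the control mean of the sex on every array, and each held 1 control.

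The change at 2 mg/kg differed between the sexes by the interaction test for 4 genes, with male minus female differences of -0.41 for C8a, -0.55 for Mbl1, -0.74 for Proc and -0.72 for Serpinc1. The dimmer probe of C8a gave -0.27 in males and 0.26 in females. In the count of called genes this comparison changed under most alternatives, whose values are given next.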

How the results depend on the processing

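Cfi was called in males at 2 mg/kg under every alternative with a test, and members called there were lower under each of them, but the number called was not steady. Against 12 in males, 0 in females, 2 in the interaction, 3 between control males and females and 24 in males at any dose, dropping the slide term gave 5, 1, 0, 1 and 2, keeping the dim array 2, 0, 0, 1 and 1, and both together 1, 0, 0, 0 and 0. Median centring gave 4, 0, 0, 5 and 8 (and 4 in place of 2 between the sexes averaged over doses), and the authors' values 3, 1, 0, 1 and 1. The 3 called in males in the authors' values were Cfi, F2 and Plg, of which only Cfi was among the 12. Slide as a random block gave 17, 1 in females (Cfi), 0 in the interaction and 1 in females at any dose. The liver channel alone gave 4 in the interaction and 1 in females at any dose, array weights 3 in females at any dose, and no dim filter 1 in the interaction. The adjusted p alone gave 28, 1 in females, 1 at the lower doses, 4 in the interaction, 5 between controls and 15 averaged over doses.

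The median change in males (-0.54) was -0.881 without the slide term, with or without the dim array, and -0.88 within slide 4. In females (-0.195) it was -0.811 without the slide term, with or without the dim array, 0.026 with the dim array and the slide term, -0.264 with slide at random, -0.304 after median centring, -0.802 in the authors' values, -0.148 in the liver channel alone, -0.1 within slide 2 and -0.26 within slide 7. The interaction of Proc was 0.058 in the authors' values, and C6 in males was 0.15 within slide 2. The cause of these shifts was not tested. Median centring moved the male median of all probes to 0.087, and 14.7% of male calls over all probes were lower under it, against 47.7%, 36.4% with the dim array, 36.1% with the dim array and no slide term, and 38.2% in the authors' values.

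Leaving out each of the 48 arrays in turn gave 8 (without male 84 at 2 mg/kg) to 17 (without male 86 at 2 mg/kg) called in males, 0 to 2 in females, 0 to 0 at lower doses, 0 to 6 in the interaction, 2 to 3 between controls, 2 to 2 averaged over doses, 19 to 27 in males and 0 to 2 in females at any dose. The medians ranged from -0.604 to -0.479 in males and from -0.247 to -0.165 in females. Females had 2 called without control female 9 or control male 6 and 1 without control male 3 or control female 4. Animal numbers shared by males and females belong to different animals. With the number as a replicate block (correlation 0.02) the counts were 3 between controls and 2 averaged over doses, as without it, and in 3 of 8 pairs the correlation of deviations was over 0.1. A dim liver channel on slides 5 and 6 limits precision there.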
